A study of Mus musculus with 9 samples.

Results

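The large subunit of the cytosolic ribosome is built from ribosomal RNA and a fixed set of proteins, and the 47 mouse genes named Rpl3 to Rpl41, Rplp0, Rplp1 and Rplp2 that encode them were followed gene by gene. They were chosen by name, are 47 of the 47593 rows of the deposited count table, and all 47 passed the filter on low counts that left 18356 rows for testing. The large subunit holds the peptidyl transferase centre, which joins amino acids, the tunnel through which the new chain leaves, and a flexible stalk that recruits elongation factors. Growing progenitor cells and the tumours that arise from them make ribosomes at a high rate, and the messenger RNAs of these proteins are among the most abundant of a dividing cell. Most of them begin with a run of pyrimidines, the 5′ terminal oligopyrimidine tract through which mTOR signalling sets their translation.

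The samples were 9 whole medulloblastomas, tumours of the cerebellum, from C57BL/6J mice. All mice carried an activated, EYFP-tagged Smoothened (SmoM2) at the ROSA26 locus, GT(ROSA)26Sortm1(Smo/EYFP)Amc/J, and the Cre transgene B6.Cg-Tg(Atoh1-cre)1Bfri/J, so that the oncogene was switched on in cells of the Atoh1 (Math1) lineage, the granule neuron progenitors. By genotype label there were 3 Cdk6+/+ and 6 Cdk6-/- tumours, where Cdk6 is a kinase that works with D-type cyclins to start the cell cycle, and the study compared tumours with and without it. The labels name no processing batch and no age, and p-values judge group differences against the spread between these tumours.

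The libraries differed in more than the genotype label. The Cdk6+/+ libraries held 39426972 to 56837204 and the Cdk6-/- libraries 21386685 to 34539738 counts. Cdk6 itself was at 551 to 562 CPM (counts per 1000000 of the scaled library) in Cdk6+/+ and at 2.17 to 562 CPM in Cdk6-/- tumours, where counts over all exons include any transcript from outside a deleted part and do not check the genotype. The 31 listed markers of tumour and other cerebellar cell types all had counts. The 6 progenitor and tumour markers summed to 2263 to 2489 CPM in Cdk6+/+ and to 1027 to 3278 CPM in Cdk6-/- tumours, the lowest being tumour 5, where Atoh1 was at 0.0442 CPM and Mki67 at 0.398 CPM. The 3 markers of mature granule neurons summed to 174 to 255 CPM in Cdk6+/+, to 1299.9 and 1451 CPM in Cdk6-/- tumours 1 and 5, and to 125 to 269 CPM in the other 4. The 5 red cell markers summed to 65.9 to 111 CPM in Cdk6+/+ against 0.535 to 8.005 CPM in Cdk6-/- tumours, and the 3 microglial markers to 174 to 192 against 54.5 to 109 CPM. The 4 Purkinje cell markers summed to 602 to 1223 CPM in Cdk6+/+ tumours. They summed to 62.1 to 344 CPM in Cdk6-/- tumours 1, 2, 3, 4 and 6 and to 8115 CPM in tumour 5. The 4 astrocyte markers summed to 2049 to 2105 CPM in Cdk6+/+ and the 3 oligodendrocyte markers to 995 to 2490 CPM. In Cdk6-/- tumours 1, 2, 3, 4 and 6 they summed to 728 to 1461 and to 188 to 811 CPM, below all Cdk6+/+ tumours. Cdk6-/- tumour 5 had 3252 and 2333 CPM. The 3 endothelial markers overlapped between the groups, at 31.5 to 55.5 against 32.9 to 160 CPM. Y-linked genes were at or below 0.0244 CPM in Cdk6+/+ tumours, at 0.160 and 0.135 CPM in Cdk6-/- tumours 1 and 6, and at 244 to 332 CPM in the remaining 4, so sex by these genes was partly confounded with the label.

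Sequences around the annotated start of transcription show the tract that many of these genes share. RefSeq (build GRCm38.p6) gave 42 start positions for 36 of the 47 genes. A C followed by at least 4 bases that are each C or T, on the strand of the gene and with the C at most 5 bases from the start, occurred at 19 of the 42 (45.24%), at 13 of 30 starts of small subunit genes (43.33%) and at 6027 of all 32851 starts (18.35%). The windows below are 30 bases long and begin 10 bases before the start position, and capitals mark the longest run of C and T. They are shown for 3 long tracts (Rpl27a, Rpl15, Rpl7a), for Rplp2 and Rpl22l1, whose fitted changes, given below, were -0.20 and -2.67, and for Rpl10 and Rpl24, whose annotated starts hold no such tract.
Rpl27a: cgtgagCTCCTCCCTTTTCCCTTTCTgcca
Rpl15: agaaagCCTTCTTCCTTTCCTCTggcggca
Rpl7a: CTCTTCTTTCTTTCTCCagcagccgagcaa
Rplp2: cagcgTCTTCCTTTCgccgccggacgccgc
Rpl22l1: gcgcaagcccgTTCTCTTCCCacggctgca
Rpl10: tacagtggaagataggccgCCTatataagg
Rpl24: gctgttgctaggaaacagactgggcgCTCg
They lie at chr7:109519185-109519214 (plus strand), chr14:18270967-18270996 (minus), chr2:26910797-26910826 (plus), chr7:141447641-141447670 (plus), chr3:28805498-28805527 (plus), chrX:74270806-74270835 (plus) and chr16:55966265-55966294 (plus), in the same order. The longest run was 20 bases in Rpl27a, 17 in Rpl15 and Rpl7a, 10 in Rplp2 and Rpl22l1, and 3 in Rpl10 and Rpl24. The median log2 fold change was -1.70 in the 17 genes with the tract, of which 6 fell in the test described below. It was -1.52 in the 19 with a start position but no tract, of which 8 fell. Of all tested rows, 2.43% were called lower in that test. The tract was looked for only within 5 bases of annotated starts, so a gene without it here may hold one at another start. The difference between these sets of genes was not tested.

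Large subunit genes took a smaller part of every Cdk6-/- library. Together they made up 2.79%, 2.34% and 2.76% of all counts in Cdk6+/+ tumours 1 to 3. In Cdk6-/- tumours 1 to 6 they made up 0.524%, 1.12%, 1.39%, 1.35%, 0.274% and 1.24%. The groups did not overlap, the Cdk6+/+ mean being 2.63 ± 0.254% (SD, n = 3) and the Cdk6-/- mean 0.981 ± 0.467% (SD, n = 6), and tumours 1 and 5 were the lowest. In bulk tissue, fewer cells of a type and less RNA per cell cannot be told apart. The ratio of large to small subunit counts was 1.16 to 1.18 in Cdk6+/+ tumours and 1.16 to 1.54 in Cdk6-/- tumours, with the highest values, 1.44 and 1.54, in tumours 1 and 5.

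**Figure D1:**
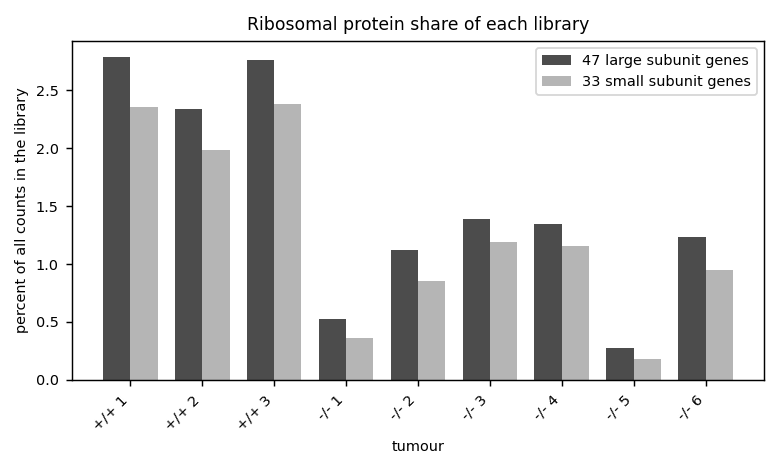
Percent of all counts in each library (vertical axis) that fell on the 47 large subunit genes (dark bars) and the 33 small subunit genes (light bars) in the 3 Cdk6+/+ (+/+) and 6 Cdk6-/- (-/-) tumours. Large subunit bars stand between 2.34% and 2.79% in Cdk6+/+ and between 0.274% and 1.39% in Cdk6-/- tumours.

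Gene by gene, 20 of the 47 fell and 0 rose in Cdk6-/- tumours by edgeR's quasi-likelihood test at a threshold of 0.05 on p-values adjusted over all 18356 tested rows. Of all tested rows, 2.43% were called lower and 2.76% higher. All 47 fitted log2 fold changes were negative, from -5.52 to -0.20 with a median of -1.58, whereas the median of all tested rows was 0.16. In 42 of the 47 genes every Cdk6-/- tumour lay below every Cdk6+/+ tumour, which held for 7.98% of all tested rows. Without Cdk6-/- tumours 1 and 5, 34 members fell (background 6.14%), and DESeq2 on all tumours called 32 lower (background 4.53%). The number that fell was 7, 10 and 7 without Cdk6+/+ tumour 1, 2 or 3, where 0.875%, 1.42% and 0.845% of all tested rows were called lower. It was 15, 13, 13, 15, 30 and 16 without Cdk6-/- tumour 1, 2, 3, 4, 5 or 6, against 2.42%, 2.15%, 1.83%, 2.16%, 4.17% and 2.2% of all rows. The 7 members Rpl24, Rpl23a, Rpl36al, Rpl22l1, Rpl26, Rpl10 and Rpl30 were called lower whichever tumour was left out. Rpl29, Rpl9 and Rpl31 missed the threshold without Cdk6+/+ tumour 1 or 3. The other 10 (Rpl5, Rpl7, Rpl17, Rpl19, Rpl21, Rpl27a, Rpl35a, Rpl37a, Rpl39 and Rpl41) missed it whichever Cdk6+/+ tumour was left out, and each of them also missed it without at least 1 Cdk6-/- tumour. Rpl3, Rpl32 and Rpl36a passed without Cdk6-/- tumour 5. With the level of Y-linked genes as a covariate it was 2, Rpl24 and Rpl36al (background 0.218%). In Cdk6-/- tumours 1 and 6, 47 and 43 members lay below the lowest Cdk6+/+ tumour, as did 39.2% and 35.9% of all tested rows. Both tumours, like the Cdk6+/+ tumours, had almost no Y-linked counts. Xist, an RNA made in female cells, was at 1583 to 2087 CPM in Cdk6+/+ tumours. It was at 131 CPM in Cdk6-/- tumour 1 and at 1757 CPM in tumour 6. Tumour 1 was therefore like the Cdk6+/+ tumours in Y-linked counts but not in Xist.

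**Figure D2:**
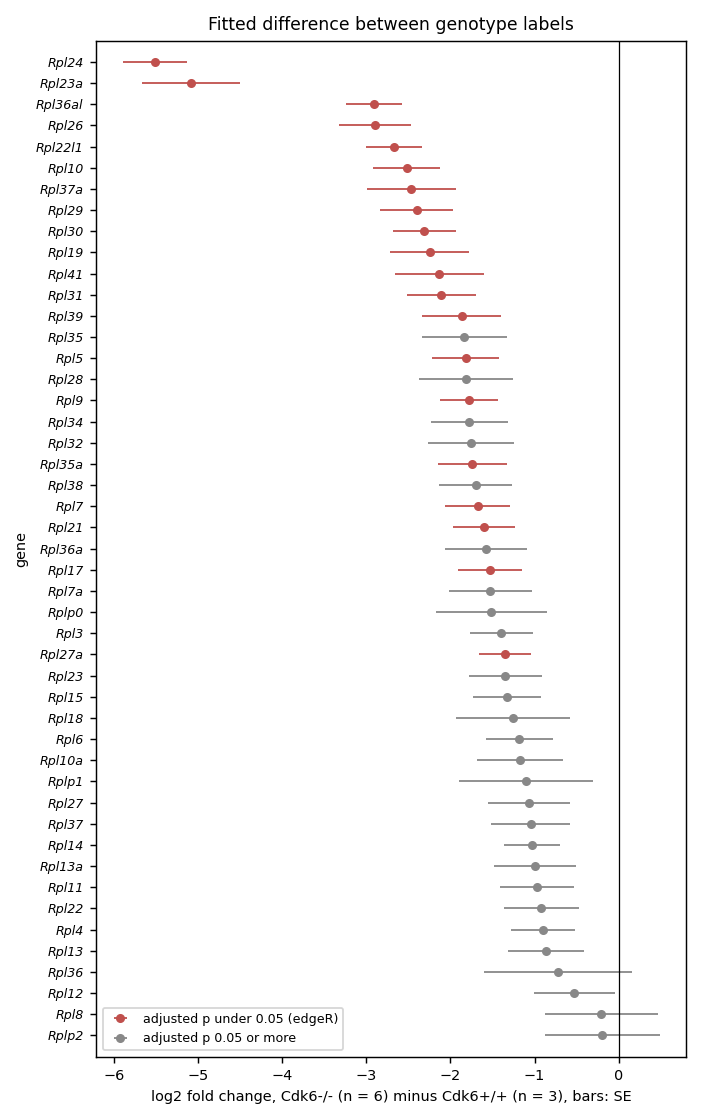
Fitted log2 fold change of each large subunit gene (horizontal axis, Cdk6-/- minus Cdk6+/+, n = 6 and 3) with its standard error, red where edgeR's adjusted p was below 0.05. All 47 points lie left of 0, from -5.52 for Rpl24 to -0.20 for Rplp2, and 20 are red.

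The Cdk6-/- tumours were not alike in how far the members lay from the Cdk6+/+ mean. The median member was at 16.8%, 39.7%, 45.8%, 41.0%, 10.8% and 41.5% of its Cdk6+/+ mean in Cdk6-/- tumours 1 to 6. All 47 members were below the lowest Cdk6+/+ tumour in tumours 1, 2 and 5, and 43, 42 and 43 were in tumours 3, 4 and 6. Of all tested rows, 35.9% to 43.5% lay below the lowest Cdk6+/+ tumour in a given Cdk6-/- tumour. In tumours 3, 4 and 6, 2 members lay above the highest Cdk6+/+ tumour, Rpl8 and Rplp2, as did 41.8%, 42.7% and 41.4% of all tested rows. Levels of Malat1, a long noncoding RNA retained in the nucleus, moved the other way: 223 to 387 CPM in Cdk6+/+ and 1415 to 10419.5 CPM in Cdk6-/- tumours, highest in tumour 5. Gapdh, an enzyme of glycolysis, was at 228 to 248 CPM in Cdk6+/+ and at 59.3 to 94.1 CPM in Cdk6-/- tumours, without overlap. The part of cell type markers, of Malat1, of Gapdh and of sequencing depth in the lower ribosomal values was not tested.

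**Figure D3:**
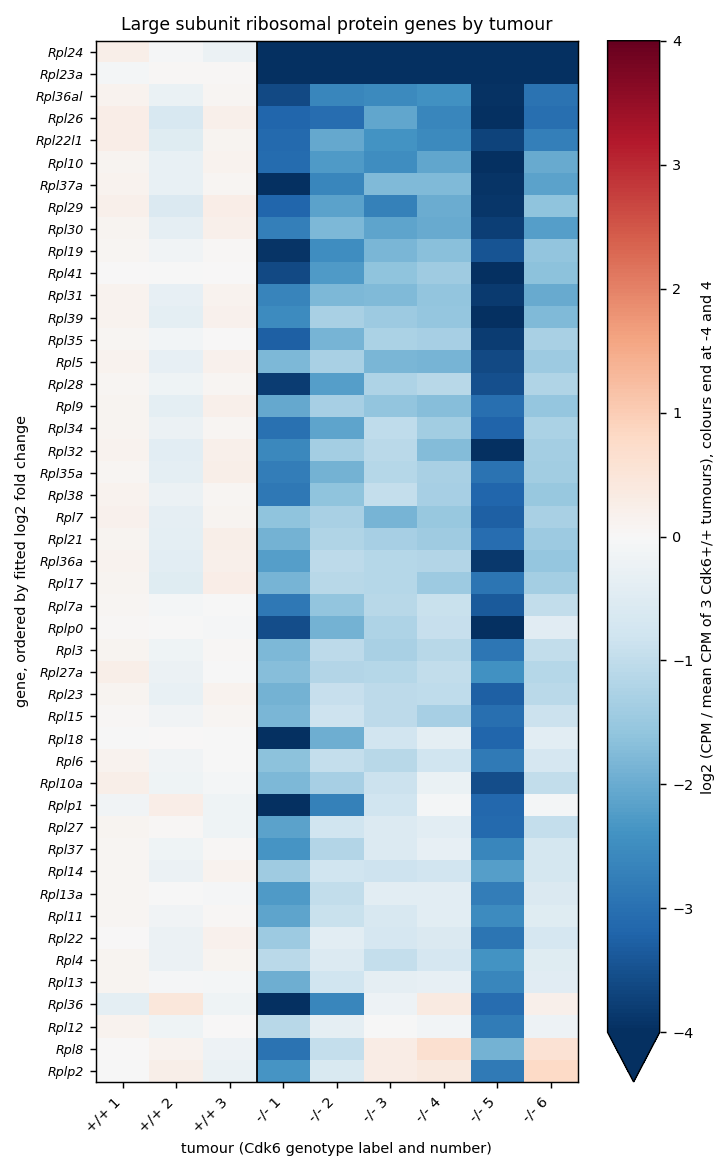
Log2 of the CPM of each large subunit gene (rows, ordered by fitted fold change) over its mean in the 3 Cdk6+/+ tumours, by tumour (columns), with colours ending at -4 and 4. Blue fills the columns of Cdk6-/- tumours 1 and 5, where the median gene stood at 16.8% and 10.8% of the Cdk6+/+ mean, and the lowest rows, Rpl8 and Rplp2, turn red in tumours 3, 4 and 6.

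Rpl24 and Rpl23a had the lowest fold changes of all members. Rpl24 (chromosome 16, 55966275 to 55971435, plus strand, GRCm38) encodes a protein that forms a bridge to the small subunit and, in yeast, joins the particle late, in the cytoplasm. It was at 53.6, 43.5 and 38.4 CPM in Cdk6+/+ tumours, and at 0.575 to 1.81 CPM with a median of 0.895 in Cdk6-/- tumours. These were 1481 to 2975 counts against 13 to 44. The groups were far apart, and Rpl24 fell by 5.52 on the log2 scale (SE 0.38, adjusted p = 0.000105, lower in 6 of 6 tumours). Rpl23a (chromosome 11, 78180932 to 78183584, minus strand) encodes the protein at the tunnel exit where signal recognition particle docks. Its 342, 374 and 376 CPM in Cdk6+/+ stood against 2.73 to 18.6 CPM, median 10.9, in Cdk6-/- tumours. Rpl23a fell by 5.08 (SE 0.58, adjusted p = 0.00129), again with no overlap. Relative to the median member of the same library, each taken against its own Cdk6+/+ mean, Rpl24 was at -4.80 to -3.08 and Rpl23a at -4.49 to -3.02 on the log2 scale in the Cdk6-/- tumours.

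Both genes share their exons or their sequence with other annotated genes. In Rpl24 46.99% of the exon bases also belong to Gm28037 on the same strand, a row with 0 counts in all 9 libraries, and in Rpl23a 62.3% also belong to other rows, mainly Tlcd1 on the opposite strand. The sources used here do not say how reads in such stretches were counted, or whether in the same way in all libraries. The part of counting in the size of the Rpl24 and Rpl23a differences was not tested. Tlcd1 was at 22.7 and 16.6 CPM in the group means (adjusted p = 0.447, edgeR's quasi-likelihood test). The only other member with at least 40% of its exon bases in another row was Rpl35, with 66.2%, whose log2 fold change of -1.84 did not pass (adjusted p = 0.0679). Of the 480 tested rows with at least 40%, 7.5% were called lower, as were 9.76% of the 297 with 50% or more, against 2.61% of the 12756 with none. The 26 members with no exon base in another row had a median of -1.52, and 10 fell.

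The coding sequence of Rpl24 is nearly that of the processed pseudogene Gm9385 on chromosome 9, with 470 of 471 bases identical. The first 60 coding bases of Rpl24 and the matching bases of Gm9385 (GENCODE M21, GRCm38) are shown because a 50-base read from this stretch cannot be placed on one of the 2 genes, and lower case throughout marks that no base differs.
Rpl24: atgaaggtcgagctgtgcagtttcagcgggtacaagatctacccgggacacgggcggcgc
Gm9385: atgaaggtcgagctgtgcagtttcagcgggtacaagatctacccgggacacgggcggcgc
Gm9385 was at 15.5 and 1.58 CPM in the group means and fell as well (log2 fold change -3.29, adjusted p = 0.0166, edgeR's quasi-likelihood test). Summed with the 6 pseudogene rows that hold any of its 50-base sequences, Rpl24 was at 56.7 to 78.5 CPM in Cdk6+/+ and at 2.87 to 9.90 CPM in Cdk6-/- tumours, and the log2 fold change was -3.28 (adjusted p = 0.00145). Across all members, 570 such rows were added and 20 members fell, as many as without them. The share of a member's 50-base sequences found on either strand of another gene ran from 3.47% in Rpl22 to 84.05% in Rpl35. Over the 47 genes, which share the same libraries, it had a Spearman correlation of -0.28 with the fold change.

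**Figure D4:**
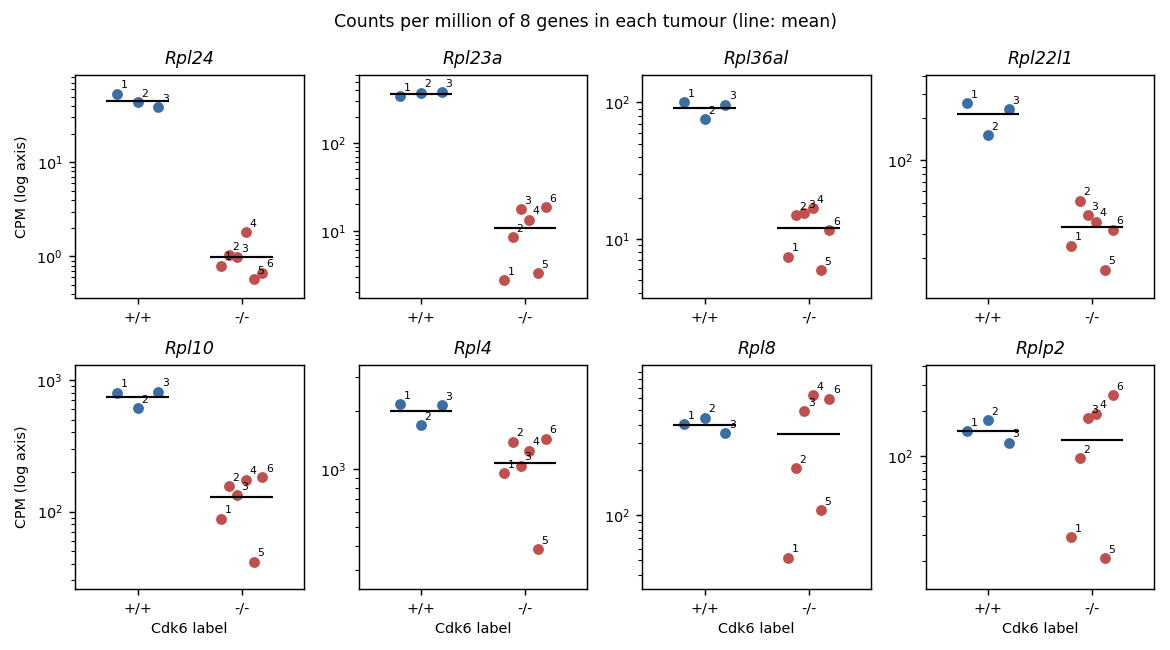
CPM on a log axis of 8 large subunit genes in each tumour (points, numbered by tumour), with group means as lines. The groups are apart for Rpl24, Rpl23a, Rpl36al, Rpl22l1, Rpl10 and Rpl4 and overlap for Rpl8 and Rplp2, where Cdk6-/- tumours 3, 4 and 6 lie above all Cdk6+/+ tumours.

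In both paralog pairs, the ratio of the less abundant to the more abundant gene was lower in Cdk6-/- tumours. Both differences had an adjusted p of 0.0476 by an exact permutation test, and of 0.0714 when Cdk6-/- tumour 1, 2, 3, 4 or 6 was left out. The groups stay fully apart in the Rpl22l1 to Rpl22 ratio in these refits. Its 0.0714 there comes from the adjustment over the 2 pairs, as does its 0.0476 with all tumours. Rpl22l1 (chromosome 3, 28805436 to 28807424, plus strand) encodes a variant of Rpl22, an RNA-binding protein near the tunnel exit that represses Rpl22l1 in mice. Rpl22l1 was at 258, 152 and 232 CPM in Cdk6+/+ and at 16.5 to 51.6 CPM, median 34.2, in Cdk6-/- tumours. All Cdk6-/- values were lower, and it fell by 2.67 (SE 0.33, adjusted p = 0.00205). Rpl22 was at 574, 488 and 643 CPM against 75.1 to 421 CPM, median 357, also without overlap, but its log2 fold change of -0.92 (SE 0.44) did not pass (adjusted p = 0.293). The log2 ratio of Rpl22l1 to Rpl22 averaged -1.43 ± 0.264 (SD, n = 3) in Cdk6+/+ tumours, while it averaged -3.05 ± 0.462 (SD, n = 6) in Cdk6-/- tumours, a difference of -1.62 (exact permutation test over 84 arrangements, two-sided, p = 0.0238, the smallest this design gives, adjusted over the 2 pairs 0.0476). The ratio in every Cdk6-/- tumour, -3.49 to -2.19, was below the lowest Cdk6+/+ value of -1.68.

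Rpl36a and Rpl36al encode near-identical proteins at the exit site for transfer RNA. Their coding sequences have 279 of 318 bases in common (87.7%). The first 60 coding bases (GENCODE M21, GRCm38) differ at 11 positions, given in capitals, so that a 50-base read from this stretch matches only one of the pair.
Rpl36a: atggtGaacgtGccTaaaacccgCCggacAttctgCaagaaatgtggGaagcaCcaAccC
Rpl36al: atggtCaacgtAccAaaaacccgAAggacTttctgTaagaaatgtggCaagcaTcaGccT
Rpl36al (chromosome 12, 69182731 to 69184083, minus strand) was at 99.99, 75.2 and 96.1 CPM in Cdk6+/+ and at 5.88 to 16.8 CPM, median 13.3, in Cdk6-/- tumours. It fell by 2.91 (SE 0.34, adjusted p = 0.00130), with the groups apart. Rpl36a was at 499, 344 and 530 CPM against 31.4 to 221 CPM, median 179.8, and its log2 fold change of -1.58 (SE 0.49) did not pass (adjusted p = 0.101). The log2 ratio of Rpl36al to Rpl36a was -2.33 ± 0.134 in Cdk6+/+ tumours (SD, n = 3) against -3.53 ± 0.551 in the Cdk6-/- group (SD, n = 6; difference -1.20, exact permutation test, two-sided, p = 0.0476, adjusted 0.0476). Tumour 5 had -2.42, within the Cdk6+/+ range, and the other 5 Cdk6-/- tumours had -3.89 to -3.59.

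Of the 9 genes of the tunnel and its exit, 6 fell, beside 20 of all 47 members and 2.43% of all tested rows. Whether the tunnel differed from the rest of the subunit was not tested. Rpl26, a protein of the exit rim, was at 839, 448 and 807 CPM in Cdk6+/+ and at 30.4 to 167 CPM, median 85.9, in Cdk6-/- tumours. Rpl26 fell by 2.90 (SE 0.43, adjusted p = 0.00547). Rpl31, also at the rim, was at 848, 616 and 865 CPM against 55.1 to 259 CPM, median 208, and fell by 2.11 (SE 0.41, adjusted p = 0.0176). Rpl17, whose loop lines the tunnel, was at 1101, 719 and 1224 CPM against 132 to 470.3 CPM, median 386, and fell by 1.53 (adjusted p = 0.0453). In these 3 genes every Cdk6-/- tumour lay below every Cdk6+/+ tumour, as in 42 of the 47 members and 7.98% of all tested rows. Rpl19 and Rpl39 passed with all tumours, with log2 fold changes of -2.25 and -1.87, and like Rpl17 not without any 1 Cdk6+/+ tumour. Rpl4, which also lines the tunnel, was at 2182, 1695 and 2153 CPM in Cdk6+/+ and at 382 to 1438 CPM, median 1146, in Cdk6-/- tumours. Its groups were apart too, but the log2 fold change of -0.90 (SE 0.38) did not pass (adjusted p = 0.231).

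Of 5 genes for proteins of the peptidyl transferase centre or bound to 5S ribosomal RNA, 2 fell, Rpl10 and Rpl5. Of all 47 members 20 fell, and of all tested rows 2.43%. Whether the centre differed from the rest of the subunit was not tested. Rpl10 (chromosome X, 74270812 to 74273135, plus strand), which joins among the last and is needed before the subunits can join, was at 800, 611 and 817 CPM in Cdk6+/+ and at 41.7 to 182 CPM, median 144, in Cdk6-/- tumours. It fell by 2.52 (SE 0.40, adjusted p = 0.00783), with no overlap. Rpl5 and Rpl11 bind 5S ribosomal RNA and, when ribosome assembly is disturbed, bind the p53 inhibitor Mdm2. Rpl5 was at 941, 677 and 958 CPM against 70.8 to 349.8 CPM, median 243, and fell by 1.82 (SE 0.40, adjusted p = 0.0292). Rpl11 was at 417, 359.9 and 408 CPM against 68.4 to 295 CPM, median 234, with a log2 fold change of -0.97 that did not pass (adjusted p = 0.258). Rpl3, which reaches into the catalytic centre, was at 967, 784 and 916 CPM against 119 to 453 CPM, median 384, and had -1.40 (adjusted p = 0.0612). Rpl8, a protein of the same region (chromosome 15, 76904071 to 76906318, plus strand), was at 402, 444 and 350.0 CPM in Cdk6+/+. Its Cdk6-/- values were 52.0, 204, 492, 624, 108 and 595 CPM in tumours 1 to 6, so that 3 tumours lay above and 3 below all Cdk6+/+ tumours (log2 fold change -0.21, SE 0.67, adjusted p = 0.903).

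None of the 4 genes of the stalk and its base passed the test with all tumours, and Rplp0 passed without Cdk6-/- tumours 1 and 5 (log2 fold change -1.03, adjusted p = 0.0467, edgeR's quasi-likelihood test). Rplp0 anchors the stalk and Rplp1 and Rplp2 form its mobile arms. Rplp0 was at 734, 704 and 679.8 CPM in Cdk6+/+ and at 39.0 to 520.3 CPM, median 244, in Cdk6-/- tumours, without overlap (log2 fold change -1.52, SE 0.66, adjusted p = 0.245). Rplp1 was at 209, 275 and 204 CPM against 10.7, 34.9, 133, 219, 25.8 and 218 CPM, and the groups overlapped (-1.10, SE 0.79, adjusted p = 0.496). Rplp2 (chromosome 7, 141447370 to 141451585, plus strand) was at 147, 173 and 123 CPM against 28.9, 96.7, 179.9, 192, 20.96 and 255 CPM. Tumours 3, 4 and 6 were above and tumours 1, 2 and 5 below all Cdk6+/+ values of Rplp2 (-0.20, SE 0.68, adjusted p = 0.909). Rpl12, at the base of the stalk, had -0.53 (adjusted p = 0.605). Whether the stalk differed from the rest of the subunit was not tested.

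Among the remaining members, Rpl30 was at 786, 560.4 and 829.6 CPM in Cdk6+/+ and at 53.3 to 208 CPM, median 164, in Cdk6-/- tumours. Rpl30, a small protein that in yeast regulates splicing of its own transcript, fell by 2.31 (SE 0.37, adjusted p = 0.00832). Rpl29, a basic protein also known for binding heparin, was at 234, 136 and 245 CPM against 13.8 to 66.6 CPM, median 39.0, and fell by 2.40 (SE 0.43, adjusted p = 0.0124). Rpl9 was at 1139.7, 815 and 1228 CPM against 129.96 to 421.5 CPM, median 342, and fell by 1.78 (SE 0.35, adjusted p = 0.0171). In all 3 every Cdk6-/- tumour lay below every Cdk6+/+ tumour, as in 42 of the 47 members and 7.98% of all tested rows. Rpl41, a very short peptide at the subunit interface, fell by 2.13, and Rpl37a, Rpl27a, Rpl21, Rpl7 and Rpl35a passed with log2 fold changes of -2.46, -1.35, -1.61, -1.68 and -1.74. None of these 6 passed when any 1 Cdk6+/+ tumour was left out. Rpl32 was at 1109.7, 752 and 1173 CPM against 58.9 to 479.5 CPM, median 348, without overlap, and its -1.75 did not pass (adjusted p = 0.0844). Rpl36 was at 52.8, 93.6 and 60.7 CPM against 2.73, 11.3, 59.8, 89.4, 8.27 and 79.4 CPM, with overlapping groups (-0.72, SE 0.88, adjusted p = 0.711). The 27 members that did not pass had log2 fold changes of -1.84 to -0.20.

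Per kilobase of deposited exon length, levels in Cdk6+/+ tumours spanned a wide range. Rpl4 was highest at 1414 ± 192 CPM per kilobase (SD, n = 3), followed by Rpl17 at 1309 ± 340.04 and Rpl32 at 1050.5 ± 235, and these neighbours differed by less than their spread. The lowest levels were those of Rplp2 (71.2 ± 12.2), Rpl36al (66.8 ± 9.86) and Rpl24 (43.8 ± 7.501). Rplp2 and Rpl36al also differed by less than their spread. The exon length is the union over all transcripts of a gene and includes rare long ones, which lowers such values. The order was similar in both groups, with a Spearman correlation of 0.80 between the mean levels of the 47 genes. In Cdk6-/- tumours Rpl23a moved from rank 16 to 45 and Rpl26 from 10 to 32, while Rpl8 moved from 14 to 4.

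The relation of the members' values to the base composition of their coding sequences differed between tumours. The coding GC content ranged from 39.9% in Rpl22l1 to 61.6% in Rpl36. Over the 47 genes, the Spearman correlation between GC content and the log2 ratio to the Cdk6+/+ mean was 0.47, 0.57 and 0.57 in Cdk6-/- tumours 3, 4 and 6. It was -0.35, -0.08 and 0.21 in Cdk6-/- tumours 1, 2 and 5. Cdk6+/+ tumours also differed in this respect, with 0.71 in tumour 2 and -0.47 and -0.68 in tumours 1 and 3, each compared with a mean that includes it. The 47 points of a library share its preparation and depth, and the correlations are descriptions.

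**Figure D5:**
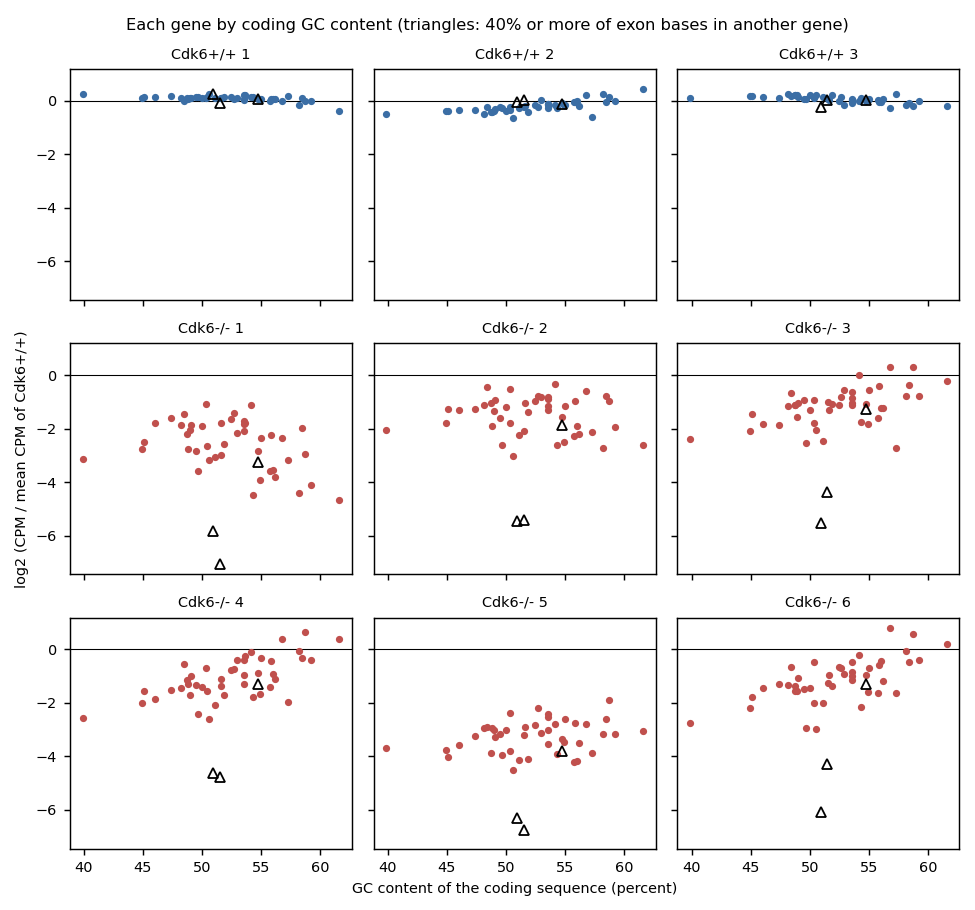
Log2 of CPM over the Cdk6+/+ mean (vertical axis) against the GC content of the coding sequence in percent (horizontal axis) for the 47 large subunit genes, 1 panel per tumour. Triangles are Rpl24, Rpl23a and Rpl35, which have at least 40% of their exon bases in another gene. Points rise with GC content in Cdk6-/- tumours 3, 4 and 6 (Spearman 0.47, 0.57 and 0.57).

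Genes that work with the large subunit were examined from lists, beside the 2.43% of all tested rows that were called lower. The few calls among translation, assembly and mitochondrial genes are near that share and are given as values. Of 33 small subunit genes 11 fell and 0 rose, with a median of -1.55 against -1.58 for the large subunit. Rps25 was among them, with a log2 fold change of -2.31. Of 17 tested translation factors and other genes with pyrimidine tracts 1 fell, with a median of -0.75. It was Eef1a1, which delivers transfer RNA to the ribosome (10150.1 ± 1972 to 1784 ± 832 CPM, SD, n = 3 and 6; log2 fold change -2.51, adjusted p = 0.0141, edgeR's quasi-likelihood test). Factors that assemble the large subunit had a median of -0.05, and 1 of 31 tested fell, Rsl24d1, which in yeast holds the place of Rpl24 until late assembly (65.4 ± 7.15 to 26.0 ± 9.38 CPM, log2 fold change -1.33, adjusted p = 0.0422). Proteins of the large subunit of the mitochondrial ribosome had a median of -0.31, and 2 of 47 tested fell, Mrpl23 (-1.35) and Mrpl30 (-0.95). Fold changes were negative in all 33 small subunit, all 17 translation, 19 of 31 assembly and 37 of 47 mitochondrial genes. They were negative in 7357 of all 18356 tested rows. Every Cdk6-/- tumour lay below every Cdk6+/+ tumour in 29, 10, 4 and 13 genes of these lists, in the same order. This held for 7.98% of all tested rows. Differences between these lists were not tested.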

How the data were processed

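Per the file headers, the authors deposited raw read counts by gene and tumour, beside the exons and total exon length of each gene. A second deposited table holds what DESeq2 gave the authors: log2 fold changes, each p-value before and after adjustment, and a further score that was not used. Per the submitters' processing notes, the tools were HISAT2, Trimmomatic, FastQC and DESeq2, and the build was GRCm38.p6. RNA was extracted with Trizol and made into Illumina TruSeq libraries, and reads were 50 bases long, per the labels and the design text. The sources used here do not say how reads were counted (tool, strand, several alignments). Reads of overlapping or near-identical genes may therefore be split.

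Groups follow the genotype label. The filterByExpr rule left 18356 rows, which edgeR 4.0.16 in R 4.3.3 scaled by TMM. Its robust quasi-likelihood test compared genotypes without covariates, two-sided, and p-values were adjusted by Benjamini-Hochberg over those rows with 0.05 as the threshold. Values in CPM are counts per 1000000 of the TMM-scaled library. Standard errors come from the test statistic, and ratios of paralogs were tested by exact permutation over tumours. Alternatives used DESeq2 1.42.0 and limma 3.58.1, among other settings. Count differences of library pairs within a group were 31.2 or more by chi-square per degree of freedom, so no pair was counted as 1 sample.

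For shared sequence, all 50-base stretches of a gene's GENCODE M21 transcripts were looked up in the transcripts of other genes, on either strand, and the percent found was taken. Exon overlap was taken from the deposited exons. Calculations outside R used Python 3.11.15 with pandas 2.3.3, numpy 2.4.6 and scipy 1.17.1.

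Values in every tumour, or their range, are given by rule for the 10 members with the smallest and the 3 with the largest p, the 3 highest and lowest per kilobase, the paralog pairs and 7 members of known function; other members were singled out after their values were seen. Members and lists were chosen with earlier results of these data known. The numbers in the titles are not said to pair the tumours, and the main test treated them as unpaired.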

Additional observations from a re-analysis of the deposited data

Results flagged for a closer look

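Among 50 sets of 6 Cdk6-/- values (the 47 genes, their summed share and both paralog ratios), 3 held a value far from the other 5 by Dixon's criterion, and chance gives about 1 in 20. Rpl24 was highest in tumour 4, at 1.81 CPM. The log2 ratios of Rpl22l1 to Rpl22 (-2.19) and of Rpl36al to Rpl36a (-2.42) were highest in tumour 5, the tumour with the fewest progenitor marker counts.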

How the results depend on the processing

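The count of 20 members that fell became 32 by DESeq2, 34 without Cdk6-/- tumours 1 and 5, 2 with the Y-linked covariate and 7 to 30 when each tumour was left out in turn. It was 18 to 23 under the other 7 settings (other scalings, no filter, limma-voom, a replicate block, pseudogenes added, of which those sharing 50-base sequences were chosen after seeing the data). No member was called higher under any of the 19 settings, and the median fold change kept its sign, at -1.76 to -1.36 with each tumour left out and -1.25 without tumours 1 and 5. RLE and upper-quartile scaling put the median of all rows at 0.15, close to 0.16. Rpl24 and Rpl36al were called lower in all 20 fits, Rpl23a and Rpl22l1 in 19, the exception being the Y-linked covariate. Rpl8 and Rplp2 turned to 0.27 and 0.30 without tumours 1 and 5 and to 0.018 and 0.0095 without tumour 1, and Rplp2 to 0.032 without tumour 5, none called; with each tumour left out they ranged from -0.45 and -0.51 upwards. The paralog differences kept their sign and, at 0.0476, their call with named pseudogenes added or a pseudocount of 0.5 CPM. Exact tests cannot go below 0.0714 without a Cdk6+/+ tumour, 0.0571 without tumours 1 and 5 or 0.25 with the replicate block, so a missed threshold there says nothing. Without 1 Cdk6-/- tumour they can reach 0.0357, which both adjusted values did without tumour 5. Both adjusted values were 0.0714 without any other. For Rpl22l1 to Rpl22, where the groups stay fully apart, that miss comes from the adjustment over the 2 pairs. The differences were -1.83 and -1.42 without tumours 1 and 5, -1.79 to -1.48 and -1.42 to -1.13 with each tumour left out, and -1.64 and -1.47 with the replicate block. The replicate block gave 23 members lower and called Rplp0 (-2.21, adjusted p = 0.0317). Same-numbered tumours correlated at 0.0473, -0.179 and -0.254, and differently numbered ones at -0.236 to 0.238. These values show no sign of pairing by number, but so few tumours cannot exclude it. The shallowest libraries are all Cdk6-/-, and low members such as Rpl24 rest on 13 to 44 counts there.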

Other observations

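The authors' deposited table of 761 genes, of which 246 are lower in Cdk6-/- tumours, lists 7 of the large subunit genes, all 7 lower, with log2 fold changes of -5.48 for Rpl24, -4.97 for Rpl23a, -2.83 for Rpl36al, -2.77 for Rpl26, -2.58 for Rpl22l1, -2.39 for Rpl10 and -2.19 for Rpl30. Of the p53 genes linked to free Rpl5 and Rpl11, Cdkn1a averaged 27.7 CPM in the 3 Cdk6+/+ tumours (SD 1.603) and 88.5 CPM in the 6 Cdk6-/- tumours (SD 66.5), and Mdm2 averaged 78.9 (SD 2.81) and 92.3 CPM (SD 15.1). Neither passed edgeR's quasi-likelihood test (adjusted p = 0.126 and 0.609). Large subunit genes varied together: over the 1081 pairs of members, the median Pearson correlation of log2 CPM was 0.92 across all 9 libraries and 0.90 across the 6 Cdk6-/- libraries, with a lowest pair of 0.36 and 0.29, where all points share library depth and the same scaling.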
